A study of Mus musculus with 18 samples.

Results

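St6galnac3 (Entrez Gene 20447, synonym Siat7c) is 1 of 41 gene symbols in the deposited table and was represented there by 2 of its 58 probe sets. Both were taken because the table gives them the symbol St6galnac3, and the table links both to the same sequence record. They are called the strong and the weak probe set after their signals. RNA of kidney glomeruli enriched fractions was measured in 18 mice on Affymetrix mouse genome arrays, with 1 array per mouse. The study deleted Paxip1, which encodes PTIP, a protein of histone H3 lysine methyltransferase complexes, and compared gene expression between 10 PTIP− and 8 PTIP+ mice. PTIP− mice carried Paxip1 fl/fl or fl/- together with a transgene that expresses Cre in podocytes. PTIP+ mice were littermates with Paxip1 fl/fl or fl/- and no Cre, so some of them may have carried a single functional allele, and no mice with Cre alone were measured. These alleles are given in the study's text, while the labels call the PTIP+ mice wild-type and the PTIP− mice Pod-Cre. The growth protocol gives an age of 4 weeks for all mice and the study's text 1 month. A separate age label runs from 1 to 18 months in steps of 1 from sample to sample, against both, and was not used.

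St6galnac3 encodes a sialyltransferase of the Golgi that adds sialic acid in alpha-2,6 linkage to the N-acetylgalactosamine of glycans which already carry a sialic acid on the neighbouring galactose. Its acceptors include the ganglioside GM1b and O-linked glycans of glycoproteins. Sialic acid gives the surface of podocytes much of its negative charge, and the sialylated protein podocalyxin is the best known carrier of it there.

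The table holds log2 RMA signals (robust multi-array average), which lay between 2.28 and 12.52 over all probe sets and arrays. The study had chosen the 58 probe sets on these same arrays for their difference between the genotypes. The comparisons of PTIP− with PTIP+ mice below therefore describe the size and spread of selected differences and are not independent evidence of them. The relation of the 2 probe sets between animals of the same genotype was not part of that choice. Their difference within an array was not itself chosen on, but its contrast between genotypes is the difference of 2 selected contrasts and is not free of the selection. The scan names carry animal numbers that form 3 series, each with 6 arrays. Series 1 held 3 PTIP+ and 3 PTIP− mice, series 2 held 2 and 4, and series 3 held 3 and 3. The labels do not say what the series stand for. Precision is limited by how many arrays there are.

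The strong probe set gave the higher signal of the pair in 17 of the 18 arrays. Its lowest, median and highest log2 signals were 9.06, 10.31 and 11.11 in PTIP+ mice and 6.44, 8.68 and 9.48 in PTIP− mice. The lowest PTIP+ mice, replicates 4 and 5, lay within the PTIP− range, and 6 of the 10 PTIP− mice lay below all PTIP+ mice. For the weak probe set the corresponding values were 5.61, 6.08 and 6.84 in PTIP+ mice and 4.40, 4.83 and 7.62 in PTIP− mice. Here the highest signal of all 18 mice belonged to a PTIP− mouse, replicate 6, which also had the lowest signal of all for the strong probe set.

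**Figure D1:**
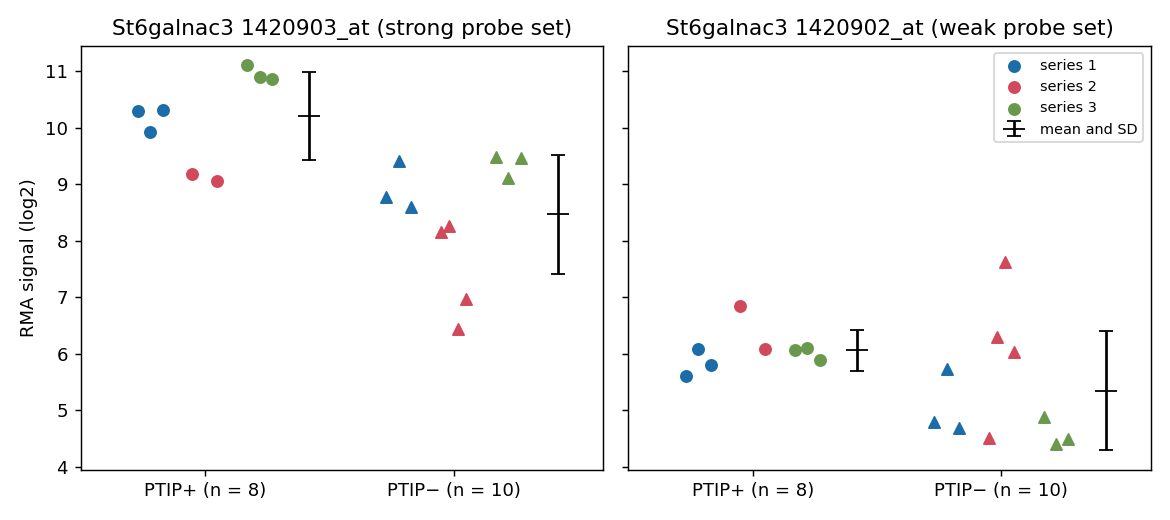
Log2 RMA signal of the 2 St6galnac3 probe sets in each mouse, by genotype and coloured by animal number series, with the mean and SD of each genotype. For the strong probe set the series 2 mice are the lowest of each genotype, while for the weak probe set 3 of the 4 PTIP− mice of series 2 lie at 6.03 or above.

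Signals of different probe sets depend on how well each binds its target, so their levels are given side by side with no test. In PTIP+ mice the signal of the strong probe set exceeded that of the weak probe set by a log2 difference of 4.15 ± 1.01 (SD, n = 8) or 17.7-fold, and the mean of a series ran from 6.29-fold in series 2 to 30.7-fold in series 3. In PTIP− mice the log2 difference was 3.12 ± 1.97 (SD, n = 10) or 8.72-fold, from 2.53-fold in series 2 to 27.2-fold in series 3. The spread within a genotype was of like size for both, with a pooled SD of 0.94 for the strong probe set and 0.83 for the weak probe set. Within genotype and series the order was the reverse, with a pooled SD of 0.50 for the strong and 0.71 for the weak probe set. The spread was not alike in each genotype, since the SD of the weak probe set was 0.36 in PTIP+ and 1.05 in PTIP− mice.

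Both probe sets were lower in PTIP− mice. For the strong probe set, the mean log2 signal was 10.21 in PTIP+ mice (SD 0.78, n = 8) against 8.47 in PTIP− mice (SD 1.05, n = 10), and all 10 PTIP− mice lay below the PTIP+ mean. The array-weighted limma fit gave a log2 fold change of −1.72 (SE 0.28, 95% interval −2.30 to −1.14), a 3.3-fold decrease, with an adjusted p of 4.5e-06. It was the eleventh largest decrease of the 58. For the weak probe set, the means were 6.06 (SD 0.36, n = 8) and 5.34 (SD 1.05, n = 10), and 8 of 10 PTIP− mice lay below the PTIP+ mean. The limma fit gave a log2 fold change of −1.09 (SE 0.24, 95% interval −1.58 to −0.60), a 2.13-fold decrease, with an adjusted p of 0.00014. Both were thus counted as changed, which required at least a 2-fold difference, an adjusted p not above 0.05 and a variance over 0.1. In that direction this held for 33 of the 58 probe sets (56.9%), and for 12 with arrays centred on their median, and nothing about St6galnac3 is read from the count because the table was selected on this contrast.

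The decrease of the weak probe set depended on the weights given to the arrays. Without array weights it was −0.72, with an adjusted p of 0.058 from limma, while that of the strong probe set was −1.74, with an adjusted p of 0.00045. An exact two-sided permutation test of the unweighted means over all 43758 splits gave p = 0.084 for the weak probe set, with an interval of the difference from −1.52 to 0.11. For the strong probe set it gave p = 0.001 and an interval from −2.69 to −0.80. The weights, which limma estimates from how far each array departs from its group over the 58 probe sets, had their 4 lowest values in series 2, down to 0.259. The other 2 arrays of series 2 had weights of 0.516 and 1.63, and the lowest weight outside it was 0.506, in PTIP− replicate 2 of series 1. The 6 arrays of series 2 made up 33.3% of the arrays and 16.4% of the weight. The array medians over the table were lower by −0.46 in PTIP− mice, and relative to them the weighted decreases were −1.21 for the strong and −0.50 for the weak probe set (adjusted p = 0.00026 and 0.052 from limma). PTIP− replicate 6 had the lowest weight of all, and it is the mouse with the highest signal of the weak probe set.

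Within the number series, the strong probe set separated the genotypes each time. From series 1 to series 3 its differences of means were −1.25, −1.66 and −1.61, and every PTIP− mouse lay below every PTIP+ mouse of its series, as was so for 20 of the 58 probe sets (34.5%). The differences of the weak probe set were −0.76, −0.35 and −1.43 in the same order, and the genotypes overlapped in series 1 and 2 but not in series 3. The limma interaction test did not show that the effect of genotype differed between series, with adjusted p = 0.92 for the strong probe set and 0.34 for the weak probe set. It was past the threshold for 9 of the 58 probe sets (15.5%). With permutation restricted to within the series, an alternative added after the data were seen, the differences were −1.50 for the strong probe set (exact permutation p = 0.00033) and −0.87 for the weak probe set (exact permutation p = 0.022).

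Whether the probe sets differed in their response to genotype was asked from their difference within each array. This cancels what the array shares, but it widens the spread where the probe sets move in opposite directions. Its SD was 1.97 in PTIP− mice, against 1.05 for each probe set alone. In PTIP+ mice it was 1.01, against 0.78 for the strong and 0.36 for the weak probe set. The difference of the strong probe set minus the weak probe set had a lowest, median and highest value of 2.33, 4.61 and 5.05 in PTIP+ mice. In PTIP− mice these were −1.18, 3.79 and 4.98. The PTIP+ values lay almost wholly within the PTIP− range, which reached much lower, and the low end of each was made up of series 2 mice. The difference was lower by a mean log2 of −1.02 in PTIP− mice, with an interval from −2.66 to 0.55 and an exact two-sided permutation p of 0.21. It was −0.63 with array weights (exact permutation p = 0.094), −0.63 with the series as a block (exact permutation p = 0.2) and −0.54 without PTIP− replicate 6 (exact permutation p = 0.37). A larger decrease of the strong probe set than of the weak probe set was therefore not shown, and the interval holds gaps in either direction. Within series, the genotype difference in this measure was −0.49, −1.31 and −0.18 in series 1 to 3, the largest in series 2.

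**Figure D2:**
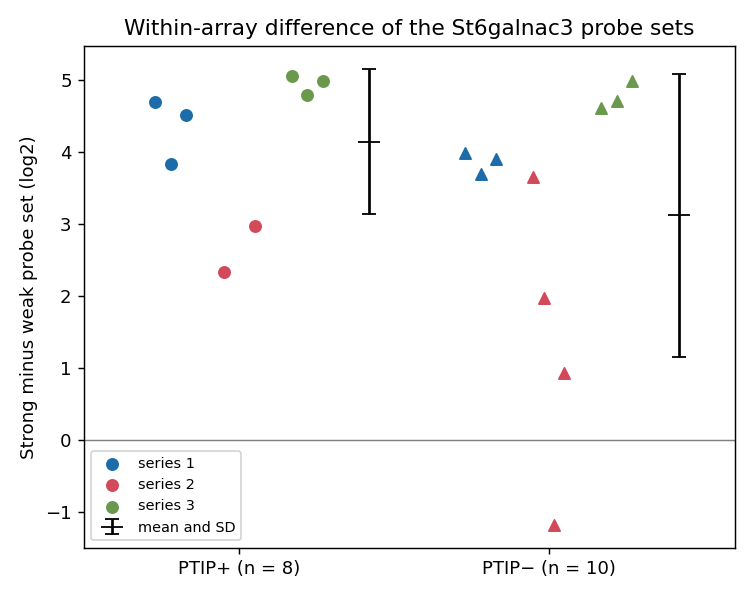
Log2 signal of the strong probe set minus that of the weak probe set on the same array, by genotype and coloured by animal number series, with the mean and SD of each genotype. In series 1 and 3 the values lie between 3.69 and 5.05 in both genotypes, while PTIP− replicate 6 of series 2 is at −1.18.

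The probe sets of this gene did not rise and fall together from animal to animal. Among the 8 PTIP+ mice, Pearson's r was −0.51 (exact permutation p = 0.21) and Spearman's rho was −0.29 (exact permutation p = 0.5). Among the 10 PTIP− mice, r was −0.74 (permutation p = 0.017) and rho was −0.49 (permutation p = 0.15). Adjusted over these 4 values, the p for r was 0.28 in PTIP+ and 0.068 in PTIP− mice, and that for rho was 0.5 and 0.28. Neither relation passed 0.05 after the adjustment. Leaving out the 2 mice farthest from the median of the strong probe set changed r to 0.30 in PTIP+ mice (n = 6, exact permutation p = 0.55) and to −0.17 in PTIP− mice (n = 8, exact permutation p = 0.68). All 4 mice left out, PTIP+ replicates 4 and 5 and PTIP− replicates 6 and 7, belong to series 2, so the negative relation rests on them. In series 1 and 3 together, r was 0.30 in PTIP+ and 0.27 in PTIP− mice (n = 6 each, exact permutation p = 0.55 and 0.7). With the mean of each series subtracted it was −0.17 and −0.47 (exact permutation within series, p = 0.72 and 0.52). Single series hold 2 to 4 mice of a genotype, too few for a value of their own.

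**Figure D3:**
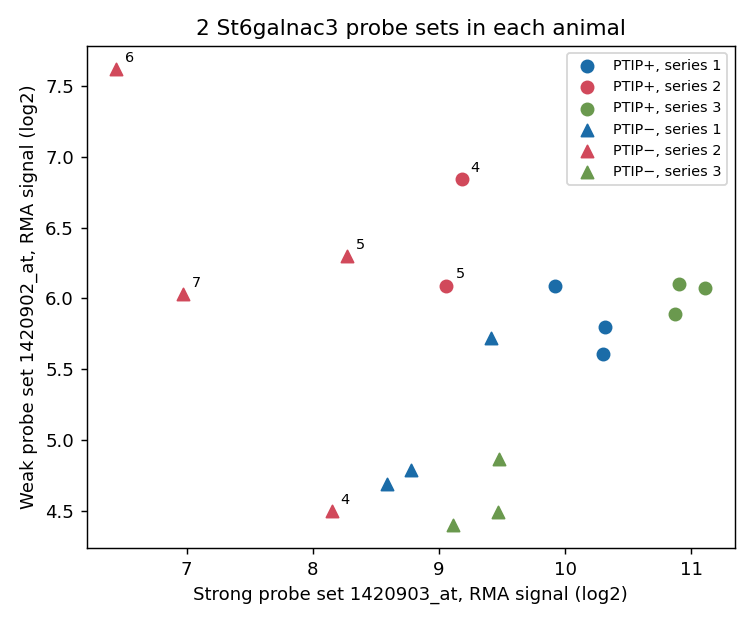
Log2 RMA signal of the weak probe set against that of the strong probe set in each mouse, with genotype as the shape and animal number series as the colour, and replicate numbers beside the series 2 mice. PTIP− replicate 6, at 6.44 and 7.62, has the lowest signal of one probe set and the highest of the other.

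Series 2 differed from series 1 and 3 in opposite directions for the 2 probe sets, without overlap for the strong one and with overlap for the weak one. The signal of the strong probe set was 9.06 and 9.18 in the 2 PTIP+ mice of series 2, against 9.92 to 11.11 in the 6 others. In PTIP− mice it was 6.44 to 8.27 in series 2, against 8.59 to 9.48. The groups did not overlap in either genotype, which held in this direction for 3 of the 58 probe sets (5.17%). The others were Adcy5, an adenylate cyclase, and Fa2h, both named after their values had been seen. The signal of the weak probe set was 6.09 and 6.84 in the PTIP+ mice of series 2, against 5.61 to 6.10 in the 6 others. In PTIP− mice it was 4.50, 6.30, 7.62 and 6.03 in replicates 4 to 7, against 4.40 to 5.72 in series 1 and 3. Replicate 4 was thus the exception, with a signal like that of the other series. In a limma fit of genotype and series added after these values had been seen, series 2 differed from the mean of series 1 and 3 by −1.43 for the strong probe set (SE 0.22) and by 0.93 for the weak probe set (SE 0.27). Series 2 was singled out on these same values, so the sizes are a description and no p is given for them. In that fit 19 of the 58 probe sets (32.8%) were lower and 10 (17.2%) were higher in series 2 at an adjusted p of up to 0.05, so each direction was shared by other probe sets. What the series differ in, such as tissue composition, RNA amplification or array handling, is not given in the labels, and its part in the opposite shifts was not tested.

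For comparison, 5 genes of the table have more than 1 probe set, which makes 14 pairs of probe sets for the same gene. Over the 18 mice with genotype means subtracted, St6galnac3 had the lowest r of the 14, −0.68, and −0.45 when the series means within each genotype were subtracted as well. The other 13 lay between −0.30 and 0.91, and 2 of them were negative, both between probe sets of the neurotrophin receptor Ntrk3. The pair for Prm1, a protamine, was at 0.91. These values are a description with no test, and 10 of the 14 pairs come from the single gene Ntrk3. RefSeq (GRCm38.p6) lists 12 transcripts for St6galnac3, of which 1 is a curated mRNA, 9 are predicted mRNAs and 2 are predicted non-coding. Which of these each probe set detects could not be read from the table.

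The probe sets most like each St6galnac3 probe set were different ones. With genotype means subtracted, the 5 highest correlations of the strong probe set over the 18 mice were with Lrtm2 (r = 0.94), the tetraspanin Tspan32 (0.93), 1442392_at (0.92), the muscle histone methyltransferase Smyd1 (0.88) and 3110006E14Rik (0.88). Of these, Lrtm2, Tspan32 and 1442392_at were higher in PTIP− mice, with log2 fold changes of 1.78, 2.68 and 1.01, so their likeness to the strong probe set between mice of a genotype ran against their difference between genotypes. The 5 highest correlations of the weak probe set were with Samd5 (0.91), 1447723_at (0.87), the Ntrk3 probe set 1425070_at (0.85), the interleukin 6 receptor subunit Il6ra (0.85) and Lingo2 (0.82). All 5 were lower in PTIP− mice, with log2 fold changes from −2.81 for 1447723_at to −0.82 for Lingo2, which is under 2-fold. Most of the table went this way, with 38 probe sets lower and 20 higher in PTIP− mice. The direction is therefore not read as a trait of the partners of either St6galnac3 probe set. Over the 56 other probe sets, the correlations with the 2 St6galnac3 probe sets had opposite signs in 51, and in 40 with series means subtracted as well. These counts largely restate the negative r between the 2 probe sets themselves. Among the 57 partners of the strong probe set, the weak probe set ranked 54th, and in the reverse comparison the strong probe set ranked 55th.

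With series means subtracted, the correlations of the strong probe set with its 5 partners were 0.76 for Lrtm2, 0.70 for Tspan32, 0.90 for 1442392_at, 0.59 for Smyd1 and 0.58 for 3110006E14Rik. Those of the weak probe set were 0.86 for Samd5, 0.91 for 1447723_at, 0.85 for the Ntrk3 probe set, 0.75 for Il6ra and 0.70 for Lingo2. Of the first 5, 1442392_at alone stayed close to its value without the subtraction, while Samd5, 1447723_at and the Ntrk3 probe set did so among the second 5. The signal of Tspan32 was 4.06 to 4.20 in the PTIP+ mice of series 2 and 5.17 to 6.09 in the other PTIP+ mice. In PTIP− mice it was 5.71 to 8.01 in series 2 and 7.93 to 9.48 in the others, with a small overlap. On the other side, 1447723_at was 6.22 to 10.20 in the PTIP− mice of series 2 and 3.82 to 4.50 in the other PTIP− mice. In PTIP+ mice it was 8.15 to 9.35 in series 2 and 7.16 to 8.28 in the others, also with an overlap.

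**Figure D4:**
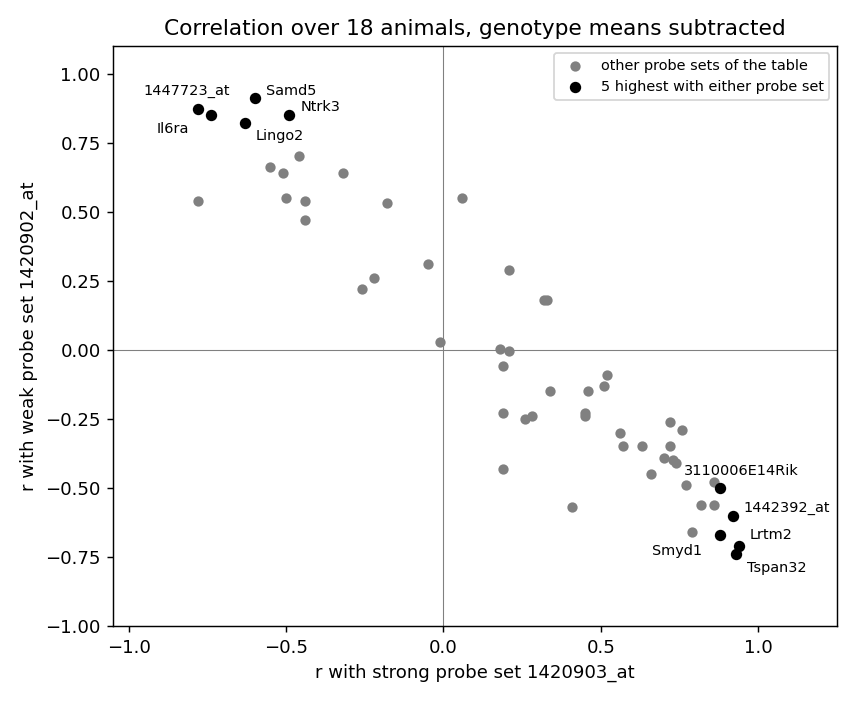
Pearson correlation of each of the 56 other probe sets with the strong probe set (horizontal) and the weak probe set (vertical) over 18 mice, with genotype means subtracted. In 51 of the 56 the signs are opposite (40 with series means subtracted, not drawn), and the 5 probe sets most like the strong probe set lie at r = −0.50 or lower with the weak probe set.

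Little else of the pathway was in the table. Because the table holds only probe sets selected for a genotype difference, a gene absent from it may still have been measured on the arrays. None of the 19 other sialyltransferases listed had a probe set there, nor any of the 11 genes of sialic acid supply and removal or the 6 genes of core O-glycan synthesis. Of 9 genes of glycosphingolipid synthesis, 1 was present, Fa2h, which encodes the fatty acid 2-hydroxylase that supplies hydroxylated fatty acids for sphingolipids. Its lowest, median and highest log2 signals were 8.78, 9.21 and 9.47 in PTIP+ mice and 7.31, 8.13 and 8.72 in PTIP− mice. Its log2 fold change was −1.15 (SE 0.17, adjusted p = 1.2e-06 from limma). Fa2h too was selected on this contrast, so its separation of the genotypes is not independent evidence. Like the strong probe set it was lowest in series 2 in both genotypes, at 8.78 to 8.82 in PTIP+ and 7.31 to 8.05 in PTIP− mice. The table places St6galnac3 in 2 pathways, ganglioside synthesis and a general one of glycan synthesis, and lists no other probe set in either.

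None of the 9 markers of podocytes, 5 of endothelial cells, 4 of mesangial cells, 4 of proximal tubule and 3 of immune cells had a probe set in the table. The glomerular identity of the fractions and their make-up could therefore not be checked from these values, and fewer podocytes in the fraction and less St6galnac3 RNA per podocyte cannot be told apart.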

How the data were processed

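RNA of glomeruli enriched fractions was amplified with NuGEN Ovation and hybridised to 18 arrays. The authors deposited log2 RMA values of 58 selected probe sets, and these were used unchanged. The strong probe set is 1420903_at and the weak one 1420902_at. 3 further columns of the table hold the authors' own t-statistic, p-value and fold change and were not used. Genotype groups and replicate numbers come from the labels, the Paxip1 alleles from the study's text, and the number series from the scan names. 1 animal number occurs in the scan names of both PTIP+ replicate 5 and PTIP− replicate 7.

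A linear model of genotype was fitted over all 58 probe sets with limma 3.58.1 in R 4.3.3 (array weights, eBayes), with Benjamini-Hochberg adjustment over the 58. Single values were tested by exact two-sided permutation, counting splits with an absolute difference at least as large as that observed, in Python 3.11.15 (scipy 1.17.1, numpy 2.4.6). Intervals of 95% for differences of means hold the shifts that this test did not refuse. Correlations were tested over all pairings, or 100000 random pairings for 10 mice. Both procedures were tested on simulated data. Group means and SDs are unweighted.

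The members and gene lists were chosen with earlier results of these data known. By rule, both St6galnac3 probe sets were described in full, with the 5 probe sets most correlated with each and any list member in the table. The alternatives were no weights, series or replicate blocks, each animal left out, the 2 animals with a shared number left out, centred arrays, a robust and trended prior, permutation in place of limma, other limits, medians, the mean of both probe sets, and scaling by SD. Leaving out series 2, the fit of series, permutation within series for single probe sets, and the interaction without weights were added after the data were seen. Detection calls and probe sequences were not among the files used.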

Additional observations from a re-analysis of the deposited data

Results flagged for a closer look

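For the weak probe set, PTIP+ replicate 4 had a log2 signal of 6.84 and stood far from the 7 other PTIP+ mice, which lay between 5.61 and 6.10. Its distance to the next mouse was 0.601 of the range, above the limit of 0.526 for 8 samples. Among the 6 groups examined (both probe sets and their difference, in both genotypes), no other group had such a sample. Chance flags about 1 in 20 groups, for each of the 6 groups, so a single one among them is not rare. The same mouse had a signal of 9.18 for the strong probe set, the second lowest of its genotype, and it belongs to series 2. Without it, r of the 2 probe sets in PTIP+ mice was −0.10.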

How the results depend on the processing

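The decrease of the strong probe set kept its direction under all 30 alternatives, with log2 fold changes from −1.89 to −1.21, and its call in the 29 that have a test. The difference of medians has none, and 1 of the 29 fits the mean of both probe sets (−1.40) in place of the strong one. Leaving out each animal gave −1.89 to −1.52 for it and −1.17 to −1.0 for the weak probe set. The call of the weak probe set was lost under 4 of 29: without array weights and in the permutation test (−0.72 in both, adjusted p = 0.058 and 0.084), with a replicate block (−0.71, adjusted p = 0.02) and with centred arrays (−0.50, adjusted p = 0.052), against adjusted p from 5e-06 to 0.084 over the alternatives that fit this probe set. The unweighted difference of means of the weak probe set, −0.72, passed the test when permuted within series (−0.87) and without series 2 (−1.10, exact permutation p = 0.0043). With the series as a block the fits gave −1.51 and −1.11. The replicate block, over the 16 mice of replicates 1 to 8, gave −1.69 for the strong probe set, and 5 of 8 same-numbered pairs had deviations that correlated above 0.1.

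Array medians over the table were lower by −0.46 in PTIP− mice, and relative to them the log2 fold changes were −1.21 and −0.50. Since the table is selected, its median carries part of the effect. Of the 58 probe sets 52 were changed, 32 with centred arrays (lower in PTIP− mice for 12, against 33), and 48 to 55 with each animal left out, and 48 with the replicate block.

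The genotype difference in the within-array difference missed the threshold in every alternative tested (25 in all, 1 of them a difference of medians with no test), from −1.45 with the replicate block (exact sign-flip permutation p = 0.12) to −0.33 without series 2. Leaving out each animal gave −1.28 to −0.54, the latter without PTIP− replicate 6.

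For r of the 2 probe sets, the unadjusted permutation p was read. In PTIP+ mice r was −0.69 with centred arrays (exact permutation p = 0.041), reversed to 0.30 without the 2 farthest mice and without series 2 (the same mice), and was −0.61 to −0.10 with each animal left out. In PTIP− mice it was −0.81 with centred arrays (permutation p = 0.0061), no longer past the threshold with series means subtracted (−0.47), as Spearman's rho (−0.49) or without the 2 farthest mice (−0.17), reversed to 0.27 without series 2, and was −0.83 to −0.48 with each animal left out, the latter without replicate 6 (exact permutation p = 0.19). The causes were not tested. Signal over background was not measured, since no detection calls were used.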
